A study of Homo sapiens with 8 samples.

Results

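The 9 genes described here write, remove or feed the removal of DNA methylation. They were chosen by name and function, with earlier results of these data known. They are TET1, TET2, TET3, DNMT1, DNMT3A, DNMT3B, UHRF1, IDH1 and IDH2, 9 of 60196 gene symbols in the count tables, and all 9 passed the filter on low counts in every comparison. RNA of P-body preparations and of the cytosol was sequenced from a pair of human acute myeloid leukaemia (AML) cell lines. The 4 groups of 2 libraries were MOLM-13 P-body, MOLM-13 cytosol, HEL P-body and HEL cytosol, where "cyto" in the sample titles was read as cytosolic. Both lines were grown in the same supplemented RPMI medium, and no treatment or genetic change of the cells is named in the labels. MOLM-13 is an AML line of monocytic character with a KMT2A rearrangement, and HEL is an erythroleukaemia line, so that each leukaemia type is represented by a single line. The sources used here do not give the method of P-body isolation. The labels do not call the replicates separate cultures, so a p-value speaks only of spread among the libraries sequenced, which could be technical. Line cannot be told apart from any day or run on which that line was handled.

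DNA methyltransferases add a methyl group to cytosine. DNMT1 copies existing methylation onto new DNA strands, UHRF1 recognises half-methylated DNA and brings DNMT1 to it, and DNMT3A and DNMT3B set new methylation. The TET dioxygenases oxidise 5-methylcytosine and need 2-oxoglutarate to do so, which IDH1 makes in cytosol and peroxisomes and IDH2 makes in mitochondria. TET2, DNMT3A, IDH1 and IDH2 are recurrently mutated in AML. P-bodies are cytoplasmic granules that gather mRNAs held out of translation together with repression and decay factors.

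With libraries scaled as described below, TET2 mRNA was about 4 times as abundant in P-bodies as in cytosol in both lines. TET1 was also higher in both, and TET3 was not. UHRF1, IDH2 and DNMT3A were lower in P-bodies in both lines. In MOLM-13 the calls for TET1 and DNMT3A were not kept in every other setting, as given below. IDH1 was 1.87-fold higher in MOLM-13 P-bodies, while in HEL its difference did not pass the test. The coding sequences of these mRNAs differ in composition, and short stretches from the middle of 5 of them are shown as examples of that range, chosen after their values were seen. Each stretch is 60 bases in reading frame, from the GENCODE release 29 transcript with the longest coding sequence, and capitals mark G or C at the last position of a codon. TET1 and TET2 were higher in P-bodies in both lines, IDH1 was called higher in MOLM-13, and IDH2 and UHRF1 were lower in both.
TET1: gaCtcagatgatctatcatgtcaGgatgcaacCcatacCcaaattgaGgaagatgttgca
TET2: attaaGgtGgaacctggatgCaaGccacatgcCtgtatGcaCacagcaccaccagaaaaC
IDH1: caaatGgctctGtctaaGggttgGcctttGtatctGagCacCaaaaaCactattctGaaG
IDH2: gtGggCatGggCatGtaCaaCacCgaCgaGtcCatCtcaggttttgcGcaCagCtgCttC
UHRF1: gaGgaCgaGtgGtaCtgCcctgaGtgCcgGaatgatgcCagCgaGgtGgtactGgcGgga
Of the 20 codons in each stretch, 5 ended in G or C in TET1, 8 in TET2, 11 in IDH1, 17 in IDH2 and 15 in UHRF1. Composition and direction did not go together in every gene: in the same stretch of DNMT1, which was called higher in MOLM-13, 16 codons ended in G or C, and in that of DNMT3B, which was called lower in HEL, 10 did. On GRCh38 the TET1 stretch lies in exon 4 at chr10:68645904-68645963 on the plus strand and the TET2 stretch in exon 3 at chr4:105236883-105236942 on the plus strand. The IDH1 stretch lies in exon 6 at chr2:208243474-208243533 on the minus strand. The IDH2 stretch joins exons 5 and 6 at chr15:90087546-90088388 on the minus strand, and the UHRF1 stretch joins exons 7 and 8 at chr19:4941921-4944180 on the plus strand, so these last coordinates include an intron.

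The libraries were checked before the genes were read. Total counts ran from 5897625 to 11000536 in the MOLM-13 libraries and from 13153551 to 18071473 in the HEL libraries. Levels in CPM, the usual unit, are read counts of a gene relative to the scaled size of its library. Of 10 monocytic markers, 10 reached 1 CPM in MOLM-13 and 3 in HEL. Of 10 erythroid and megakaryocytic markers, 2 to 3 did in MOLM-13 and 9 to 10 in HEL. Of 8 lymphoid markers, 3 did in MOLM-13, NKG7 and CD3D among them (all 8 summed to between 115.1 and 175.9 CPM), and 1 in HEL (summed between 1.969 and 3.056 CPM), and CD3E and CD2 were at 0 in both MOLM-13 groups. Of 3 markers of KMT2A-rearranged leukaemia, 3 reached 1 CPM in MOLM-13 and 2 in HEL. Their sum ran from 69.6 to 113.6 CPM in MOLM-13 and from 71.55 to 102.2 CPM in HEL, so the sums overlapped. All 13 mitochondrially encoded mRNAs were lower in P-bodies in both lines, with a median log2 change of -0.75 in MOLM-13 and -0.81 in HEL. Of 3 tested nuclear-retained RNAs, 2 were lower in P-bodies in each line, NEAT1 and MALAT1 in MOLM-13 and NEAT1 and KCNQ1OT1 in HEL, so that NEAT1 was the one called lower in both. The part of these markers in the results below was not tested.

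Levels are given as CPM after scaling by the trimmed mean of M values (TMM) within each line, and fold changes come from edgeR's quasi-likelihood test on the counts, with Benjamini-Hochberg adjustment over all genes tested and a threshold of 0.05. In MOLM-13, 4 of the 9 genes were higher in P-bodies, 3 were lower and 2 were not called, where 32.4% of all 14089 tested genes were called higher and 28.5% lower (60.8% in all). In HEL, 2 were higher, 5 were lower and 2 were not called, where 27.5% of all 14772 tested genes were called higher and 27.1% lower (54.6% in all). The share of the 9 genes called was thus not far from that of all genes, and the account below rests on the single genes. Their median log2 change was 0.15 in MOLM-13 and -0.33 in HEL, beside -0.04 and -0.06 over all tested genes in MOLM-13 and HEL. These are relative quantities: without a spike-in, a change in share of the RNA cannot be told from a change in amount. Scaling by library totals alone moved the median of all genes to -0.47 in MOLM-13 and -0.39 in HEL. Then 2 of the 9 genes were called higher and 5 lower in MOLM-13, and 2 higher and 7 lower in HEL. On that scaling 2903 of all 14089 tested genes were called higher and 7154 lower in MOLM-13. In HEL 2762 of all 14772 were called higher and 6761 lower.

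**Figure D1:**
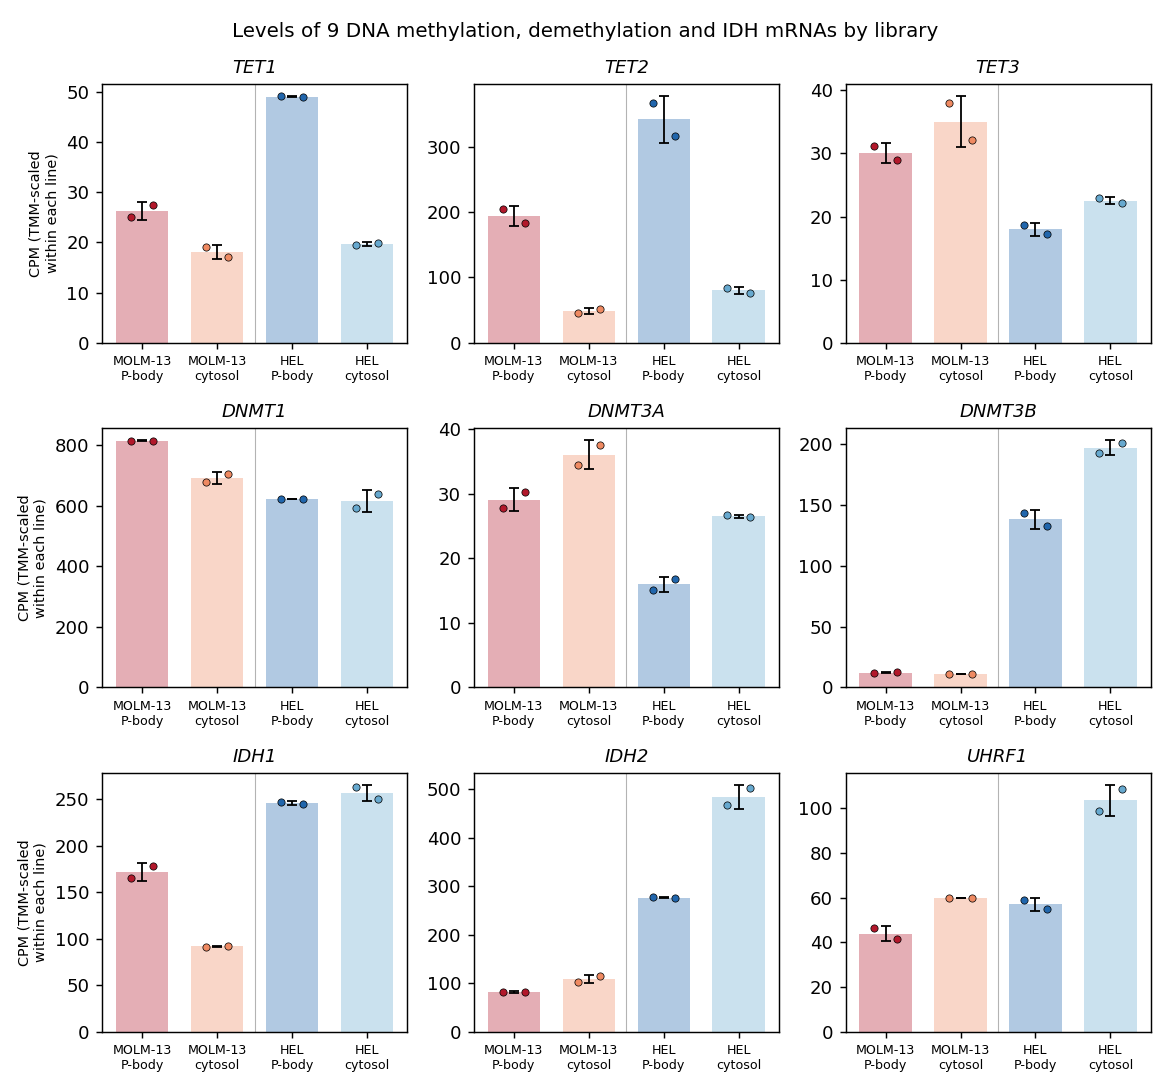
Level of each mRNA in TMM-scaled CPM (y axis, linear from 0) in MOLM-13 P-body, MOLM-13 cytosol, HEL P-body and HEL cytosol libraries. Bars are means, error bars the SD and points the 2 libraries of each group; TET2 averaged 193 CPM in MOLM-13 P-bodies against 48.7 CPM in MOLM-13 cytosol, and DNMT3B was under 13 CPM in every MOLM-13 library.

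The TET genes encode the enzymes that start the removal of DNA methylation. TET2 (chromosome 4, 105145875 to 105279816, plus strand) had 204.1 and 182.6 CPM in MOLM-13 P-bodies, against 45.7 and 51.7 CPM in MOLM-13 cytosol. The HEL libraries held 367.3 and 316.4 CPM in P-bodies, against 84.2 and 76.0 CPM in cytosol. Both P-body libraries of each line stood far above both cytosol libraries, and the gap was several times the spread between replicates. On the log2 scale the change was 1.98 (SE 0.076, 3.96-fold, edgeR adjusted p = 2.5e-17) in MOLM-13 and 2.09 (SE 0.09, 4.27-fold, edgeR adjusted p = 9.1e-11) in HEL. Among all tested genes these changes stood at percentile 99.0 in MOLM-13 and 98.7 in HEL. The counts behind them were 1923 and 1540 in MOLM-13 P-bodies, 310 and 427 in MOLM-13 cytosol, 5857 and 4863 in HEL P-bodies, and 1240 and 1318 in HEL cytosol. With library totals the gap was smaller. TET2 then averaged 165.5 CPM in MOLM-13 P-bodies against 56.38 CPM in MOLM-13 cytosol, and 304.7 CPM in HEL P-bodies against 89.48 CPM in HEL cytosol. The counts of the antisense gene TET2-AS1, whose exons share no base with those of TET2, were at most 11 in any library.

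TET1 (chromosome 10, 68560656 to 68694482, plus strand), the founding member of the family, differed less. It had 25.1 and 27.5 CPM in MOLM-13 P-bodies, against 19.0 and 17.1 CPM in MOLM-13 cytosol. HEL showed 49.2 and 49.0 CPM in P-bodies, against 19.4 and 19.9 CPM in cytosol. P-body and cytosol libraries did not overlap in either line, and the separation was wider in HEL. The log2 change was 0.54 (SE 0.13, 1.46-fold, edgeR adjusted p = 0.00081) in MOLM-13 and 1.32 (SE 0.11, 2.49-fold, edgeR adjusted p = 7.4e-08) in HEL. In MOLM-13 the call for TET1 was lost with library totals (log2 0.11), and its sign turned (log2 -0.16) once the trend of counts on GC content and transcript length was removed.

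TET3 (chromosome 2, 73986404 to 74108176, plus strand), which acts on the paternal genome of the zygote among other roles, had 31.2 and 28.9 CPM in MOLM-13 P-bodies, against 37.9 and 32.2 CPM in MOLM-13 cytosol. In HEL it had 18.7 and 17.2 CPM in P-bodies, against 22.9 and 22.1 CPM in cytosol. The P-body libraries were the lower ones in both lines, by a margin close to the spread between replicates in MOLM-13. The log2 change of -0.21 (SE 0.11) in MOLM-13 did not pass the test (edgeR adjusted p = 0.102), and that of -0.33 (SE 0.13) in HEL passed it narrowly (edgeR adjusted p = 0.0396). The HEL call for TET3 was lost in 9 of 12 other settings, leaving out any 1 of the 4 HEL libraries among them (adjusted p from 0.0539 to 0.391), with a log2 change between -0.38 and -0.18 without a library.

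Per kilobase of transcript, TET2 thus took a larger share of all TET mRNA in P-bodies than in cytosol. This share does not depend on how libraries are scaled for size. It was 78.7% and 76.6% in the MOLM-13 P-body libraries, against 45.5% and 52.2% in the MOLM-13 cytosol libraries. It was 83.9% and 82.1% in the HEL P-body libraries, against 66.9% and 64.6% in the HEL cytosol libraries. TET3 went the other way, at 10.8% ± 0.062 in MOLM-13 P-bodies and 31.4% ± 3.3 in MOLM-13 cytosol (SD, n = 2 each). In HEL the TET3 share was 3.90% ± 0.13 in P-bodies and 16.5% ± 0.38 in cytosol (SD, n = 2 each). With 2 libraries against 2 an exact permutation test of a single share has too few arrangements to reach 0.05, so none was run.

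DNMT1 (chromosome 19, 10133345 to 10231286, minus strand), the maintenance methyltransferase, was by far the most abundant of the methyltransferase mRNAs. It had 813.7 and 814.5 CPM in MOLM-13 P-bodies, against 677.1 and 704.7 CPM in MOLM-13 cytosol. The HEL libraries held 620.9 and 621.2 CPM in P-bodies, against 590.2 and 639.6 CPM in cytosol. On this scaling the groups stood apart in MOLM-13 and overlapped in HEL. With all 8 libraries scaled together, HEL had 634 and 632 CPM in P-bodies and 568 and 619 CPM in cytosol, without overlap. On the log2 scale the change was 0.24 (SE 0.042, 1.18-fold, edgeR adjusted p = 3.4e-05) in MOLM-13 and 0.01 (SE 0.069, edgeR adjusted p = 0.885) in HEL, and with library totals both turned negative (-0.20 in MOLM-13 and -0.31 in HEL). Exons of S1PR2 share 83 bases (0.847%) with those of DNMT1, and S1PR2 had between 1 and 24 counts per library.

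DNMT3A (chromosome 2, 25227855 to 25342590, minus strand), a de novo methyltransferase, was lower in P-bodies. It had 27.8 and 30.4 CPM in MOLM-13 P-bodies, against 34.5 and 37.6 CPM in MOLM-13 cytosol. HEL showed 15.1 and 16.8 CPM in P-bodies, against 26.7 and 26.4 CPM in cytosol. All P-body libraries lay below the cytosol libraries of their line, with a clear gap in HEL. The log2 change was -0.32 (SE 0.11, edgeR adjusted p = 0.0133) in MOLM-13 and -0.73 (SE 0.13, edgeR adjusted p = 0.000167) in HEL. The MOLM-13 call for DNMT3A was lost in 6 of 12 other settings, among them without P-body replicate 1 (log2 -0.24, adjusted p = 0.13) and without cytosol replicate 2 (log2 -0.23, adjusted p = 0.175).

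DNMT3B (chromosome 20, 32762385 to 32809356, plus strand), the other de novo enzyme, set the lines apart more than the fractions. It had 11.7 and 12.2 CPM in MOLM-13 P-bodies, against 10.9 and 10.7 CPM in MOLM-13 cytosol, from 110, 103, 74 and 88 counts in that order of libraries. In HEL it had 143.8 and 132.5 CPM in P-bodies, against 192.7 and 201.3 CPM in cytosol. In HEL the P-body libraries were clearly the lower pair, while in MOLM-13 all 4 values lay within about 2 CPM of each other. On the log2 scale the change was -0.51 (SE 0.077, 1.43-fold lower, edgeR adjusted p = 5.0e-05) in HEL. In MOLM-13 it was 0.15 (SE 0.17, edgeR adjusted p = 0.471), or -0.29 with library totals.

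UHRF1 (chromosome 19, 4903080 to 4962154, plus strand), the partner of DNMT1, had 46.2 and 41.4 CPM in MOLM-13 P-bodies, against 59.8 and 59.7 CPM in MOLM-13 cytosol. The HEL libraries held 58.9 and 54.9 CPM in P-bodies, against 98.5 and 108.3 CPM in cytosol. P-body libraries were lower in both lines with no overlap. The log2 change was -0.45 (SE 0.088, 1.36-fold lower, edgeR adjusted p = 0.000111) in MOLM-13 and -0.86 (SE 0.09, 1.82-fold lower, edgeR adjusted p = 1.1e-06) in HEL. DNMT1 and UHRF1, whose proteins act together, therefore differed in direction in MOLM-13 under TMM scaling, while under library totals both were lower in P-bodies.

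IDH1 (chromosome 2, 208236227 to 208266074, minus strand) makes 2-oxoglutarate outside mitochondria. It had 165.2 and 178.2 CPM in MOLM-13 P-bodies, against 91.2 and 92.1 CPM in MOLM-13 cytosol. HEL showed 246.9 and 244.5 CPM in P-bodies, against 262.4 and 249.9 CPM in cytosol. The MOLM-13 groups were widely separated, whereas in HEL the P-body libraries fell just below the cytosol libraries. On the log2 scale the change was 0.90 (SE 0.064, 1.87-fold, edgeR adjusted p = 5.0e-12) in MOLM-13 and -0.06 (SE 0.07, edgeR adjusted p = 0.497) in HEL. HEL was called lower for IDH1 with library totals (log2 -0.39) and once the GC and length trend was removed (log2 -0.44). Exons of the antisense gene IDH1-AS1 share 94 bases (1.99%) with those of IDH1, and its counts were between 12 and 49 per library, beside at least 618 for IDH1.

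IDH2 (chromosome 15, 90083045 to 90102504, minus strand), the mitochondrial enzyme, was lower in P-bodies in both lines. It had 82.8 and 81.0 CPM in MOLM-13 P-bodies, against 103.3 and 115.4 CPM in MOLM-13 cytosol. In HEL it had 276.8 and 275.1 CPM in P-bodies, against 466.7 and 501.1 CPM in cytosol. The groups did not overlap in either line, and the gap was the wider one in HEL. The log2 change was -0.42 (SE 0.071, 1.34-fold lower, edgeR adjusted p = 1.6e-05) in MOLM-13 and -0.81 (SE 0.07, 1.75-fold lower, edgeR adjusted p = 1.3e-07) in HEL. Per kilobase, IDH1 made up 69.8% ± 1.5 of IDH1 and IDH2 mRNA in MOLM-13 P-bodies and 48.1% ± 1.8 in MOLM-13 cytosol (SD, n = 2 each). In HEL this share was 49.6% ± 0.067 in P-bodies and 36.9% ± 2.0 in cytosol (SD, n = 2 each). The share of IDH1 was therefore larger in P-bodies in both lines, without overlap of libraries, and scaling by library size does not enter it. A correction for transcript composition does: with the GC and length trend removed, the log2 change in HEL was -0.44 for IDH1 and -0.37 for IDH2, so that the HEL gain of IDH1 over IDH2 was not kept, while in MOLM-13 it was 0.32 for IDH1 and -0.20 for IDH2.

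**Figure D2:**
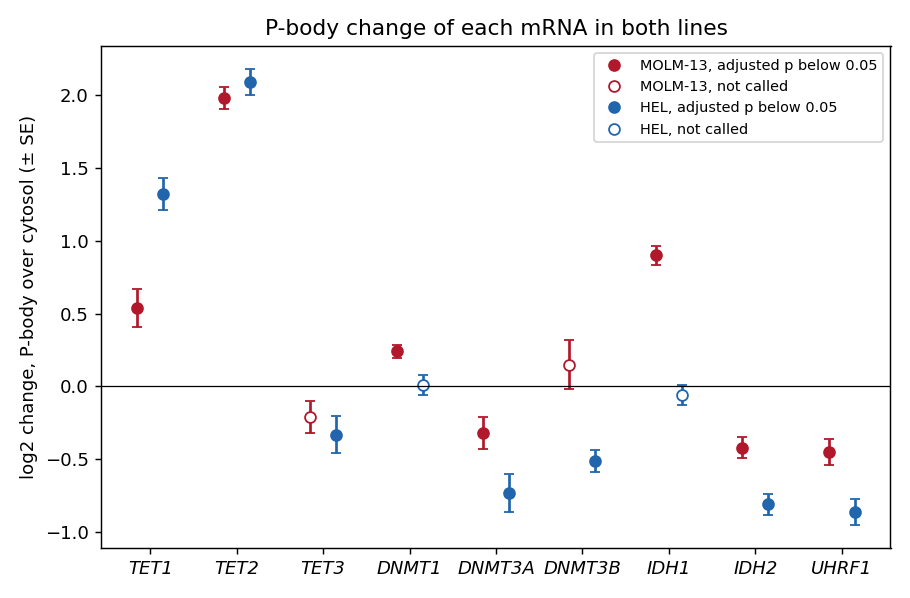
Log2 change of P-body over cytosol (y axis) for each mRNA (x axis), with MOLM-13 in red left of HEL in blue. Error bars are the SE derived from the edgeR test and filled points have an adjusted p below 0.05. TET2 stands near 2 in both lines, TET1 and IDH1 differ between the lines, and DNMT3A, IDH2 and UHRF1 lie below 0 in both.

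Whether the P-body change itself differed between the lines was tested with the interaction term of a fit to all 8 libraries, as MOLM-13 minus HEL. Of the 9 genes, 2 had a higher change in MOLM-13 and 1 a lower one, where 9.15% of 17477 tested genes were called higher and 13% lower (22.2% in all). The median difference of the 9 genes was 0.20 on the log2 scale, beside -0.11 over all tested genes, and since the 8 libraries are scaled together the values are not exact differences of those above. IDH1 had the higher change in MOLM-13, with a log2 difference of 0.77 (SE 0.096, edgeR adjusted p = 5.0e-06). TET1 had the lower change in MOLM-13, with a log2 difference of -0.96 (SE 0.17, edgeR adjusted p = 0.000247). Both calls were kept in all 16 other settings, with a log2 difference between 0.70 and 1.09 for IDH1 and between -1.04 and -0.65 for TET1.

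DNMT3B also passed, at 0.47 (SE 0.16, edgeR adjusted p = 0.0395), but this call was lost in 8 of 16 other settings. The remaining 6 genes did not pass: TET2 differed by -0.30 (SE 0.13, edgeR adjusted p = 0.107) and DNMT3A by 0.23 (SE 0.17, edgeR adjusted p = 0.397). IDH2 differed by 0.20 (SE 0.10, edgeR adjusted p = 0.183), UHRF1 by 0.23 (SE 0.13, edgeR adjusted p = 0.253), DNMT1 by 0.03 (SE 0.083, edgeR adjusted p = 0.854) and TET3 by -0.08 (SE 0.18, edgeR adjusted p = 0.813). Without HEL P-body replicate 1, HEL cytosol replicate 1 or HEL cytosol replicate 2 the median over all genes moved to 0.19, 0.17 and 0.14 in that order. Values of the 9 genes without those libraries are to be read against that shift.

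Between the lines at the same fraction, DNMT3B showed the widest gap of the 9 genes. With all 8 libraries scaled together it had 11.3 and 11.8 CPM in MOLM-13 P-bodies, against 147 and 135 CPM in HEL P-bodies, and 11.3 and 11.2 CPM in MOLM-13 cytosol, against 186 and 195 CPM in HEL cytosol. The lines did not come near each other in either fraction. It was 12.2-fold lower in MOLM-13 P-bodies (log2 -3.61, SE 0.10, edgeR adjusted p = 2.2e-18) and 16.9-fold lower in MOLM-13 cytosol (log2 -4.08, SE 0.10, edgeR adjusted p = 6.2e-19). On that scaling IDH2 was 3.55-fold lower in MOLM-13 P-bodies (log2 -1.83, SE 0.074) and 4.08-fold lower in MOLM-13 cytosol (log2 -2.03, SE 0.073).

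In P-bodies, MOLM-13 exceeded HEL for 3 of the 9 genes and was below it for 6, where 41% of tested genes were called higher and 40.8% lower (81.8% in all). In cytosol 3 were higher, 5 were lower and 1 was not called, where 44.2% of tested genes were called higher and 40.1% lower (84.4% in all). The 3 higher genes were TET3, DNMT3A and DNMT1 in both fractions. TET3 had a log2 difference of 0.67 in P-bodies and 0.75 in cytosol, DNMT3A of 0.79 and 0.56, and DNMT1 of 0.32 and 0.28. Without a filter on low counts the DNMT1 call was lost in P-bodies (0.09, edgeR adjusted p = 0.378) and its cytosol value turned to -0.01. The cytosol call of DNMT3A was lost without that filter as well (0.27, edgeR adjusted p = 0.121). The cytosol call of DNMT1 was also lost without HEL cytosol replicate 1 (0.08, edgeR adjusted p = 0.348). Lower in MOLM-13 were also TET2, with a log2 difference of -0.90 in P-bodies and -0.60 in cytosol, IDH1, with -0.59 in P-bodies and -1.37 in cytosol, and UHRF1, with -0.45 in P-bodies and -0.68 in cytosol. The P-body calls of IDH1 and UHRF1 were lost with the GC and length trend removed (IDH1 -0.12, edgeR adjusted p = 0.0694, and UHRF1 -0.05, edgeR adjusted p = 0.554), and that of UHRF1 also without HEL P-body replicate 1 (-0.23, edgeR adjusted p = 0.0708).

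TET1 was the gene not called in cytosol, with 19.8 and 18 CPM in MOLM-13 cytosol, against 18.7 and 19.3 CPM in HEL cytosol (log2 -0.01, SE 0.13, edgeR adjusted p = 0.918). In P-bodies the same gene had 24.3 and 26.5 CPM in MOLM-13, against 50.2 and 49.9 CPM in HEL (log2 -0.98, SE 0.11, edgeR adjusted p = 6.0e-08). The lines overlapped in cytosolic TET1 and stood well apart in P-body TET1. For IDH1 it was the P-body level that was the closer one, with 160 and 172 CPM in MOLM-13, against 252 and 249 CPM in HEL, while in cytosol the values were 94.8 and 97.0 CPM in MOLM-13, against 253 and 242 CPM in HEL.

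**Figure D3:**
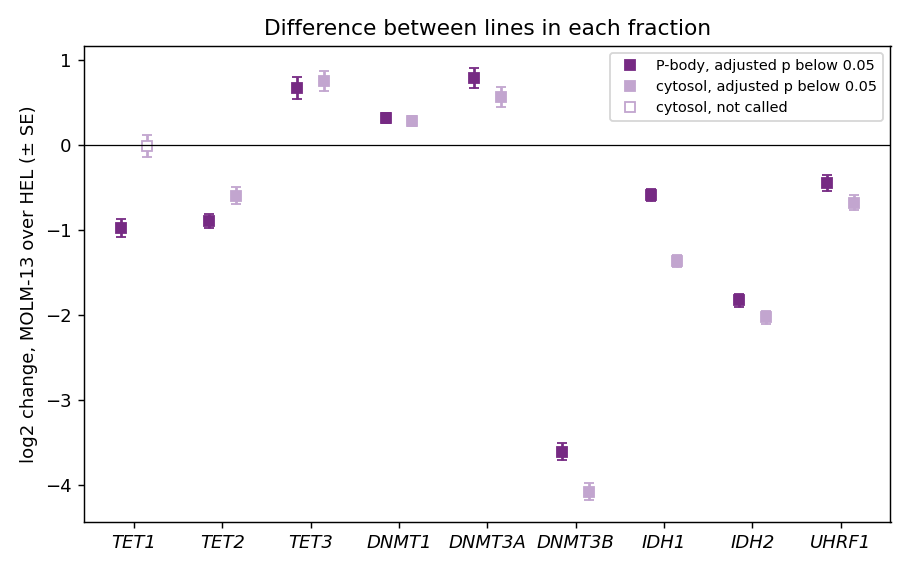
Log2 change of MOLM-13 over HEL (y axis) for each mRNA (x axis), with P-bodies in dark purple left of cytosol in light purple; error bars are the SE and the open square has an adjusted p of 0.05 or more. DNMT3B lies near -4 in both fractions, and TET1 lies at -0.98 in P-bodies and at -0.01 in cytosol.

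Per kilobase of transcript, DNMT1 had the highest level of the 9 genes in MOLM-13 P-bodies (156 ± 0.11 CPM per kb), MOLM-13 cytosol (133 ± 3.7) and HEL P-bodies (119 ± 0.037; SD, n = 2 each). In HEL cytosol IDH2 came first at 180 ± 9.0 CPM per kb, above DNMT1 at 118 ± 6.7 CPM per kb (SD, n = 2). TET2 came after DNMT1, IDH1 and IDH2 in the P-bodies of both lines, at 19.0 ± 1.5 CPM per kb in MOLM-13 and 33.6 ± 3.5 CPM per kb in HEL, where it overlapped with DNMT3B at 31.9 ± 1.9 CPM per kb (SD, n = 2 each). In cytosol UHRF1 was above TET2 in both lines, at 15.1 ± 0.016 CPM per kb against 4.79 ± 0.41 CPM per kb for TET2 in MOLM-13 and 26.1 ± 1.7 against 7.88 ± 0.57 in HEL (SD, n = 2 each). The lowest levels in MOLM-13 P-bodies were those of DNMT3A, TET1, DNMT3B and TET3, between 2.64 and 3.06 CPM per kb, and neighbours among these 4 overlapped. In HEL P-bodies DNMT3A and TET3 were lowest, at 1.68 ± 0.12 and 1.58 ± 0.09 CPM per kb, and overlapped as well.

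DNMT3B made up 1.70% ± 0.05 of the mRNA of the 3 methyltransferases per kilobase in MOLM-13 P-bodies and 1.79% ± 0.082 in MOLM-13 cytosol, against 20.8% ± 0.98 in HEL P-bodies and 27.3% ± 0.48 in HEL cytosol (SD, n = 2 each). DNMT1 made up 96.4% ± 0.16 and 95.5% ± 0.0075 in MOLM-13 P-bodies and cytosol, and 78.1% ± 0.89 and 71.0% ± 0.58 in HEL P-bodies and cytosol (SD, n = 2 each). The make-up of methyltransferase mRNA therefore differed more between the lines than between the fractions.

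The transcripts also differ in features that the choice of genes did not use. G or C stood at 39.4% of last codon positions in TET1, 41.2% in TET2 and 47.8% in IDH1, at 67.4% in DNMT3B and 69.1% in DNMT1, and at 71.0% in TET3, 74.6% in DNMT3A, 79.0% in IDH2 and 84.0% in UHRF1. The median over tested coding genes was 57.8% in MOLM-13 and 57.6% in HEL. The 3 genes under that median were those with the largest upward changes in MOLM-13, and TET1 and TET2 were the 2 genes called higher in HEL. Across genes, which are not independent replicates and share libraries, this share and the log2 P-body change had a Spearman rho of -0.72 in MOLM-13 (11091 coding genes) and -0.64 in HEL (11791 coding genes). Genes called higher in P-bodies had a median of 42.3% in MOLM-13 and 41.6% in HEL, and genes called lower one of 73.8% in MOLM-13 and 70.3% in HEL.

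The 9 genes can be read against that trend. With a trend on GC content and length of the transcript removed from the counts of each library, TET2 had a log2 change of 1.43 in MOLM-13 (edgeR adjusted p = 1.2e-13) and 1.66 in HEL (edgeR adjusted p = 3.8e-08). DNMT1 had 0.46 in MOLM-13 and 0.42 in HEL, both called higher. IDH2 had -0.20 in MOLM-13 and -0.37 in HEL, and UHRF1 had -0.21 in MOLM-13 and -0.43 in HEL, all called lower. IDH1 had 0.32 in MOLM-13, called higher, and -0.44 in HEL, called lower. Other calls were lost in this setting. TET1 in MOLM-13 turned to -0.16 (edgeR adjusted p = 0.322). DNMT3A in MOLM-13 had -0.17 (edgeR adjusted p = 0.199) and TET3 in HEL -0.08 (edgeR adjusted p = 0.595). The HEL calls of TET1, DNMT3A and DNMT3B were kept. TET2 therefore had the highest value of the 9 genes with and without the trend.

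**Figure D4:**
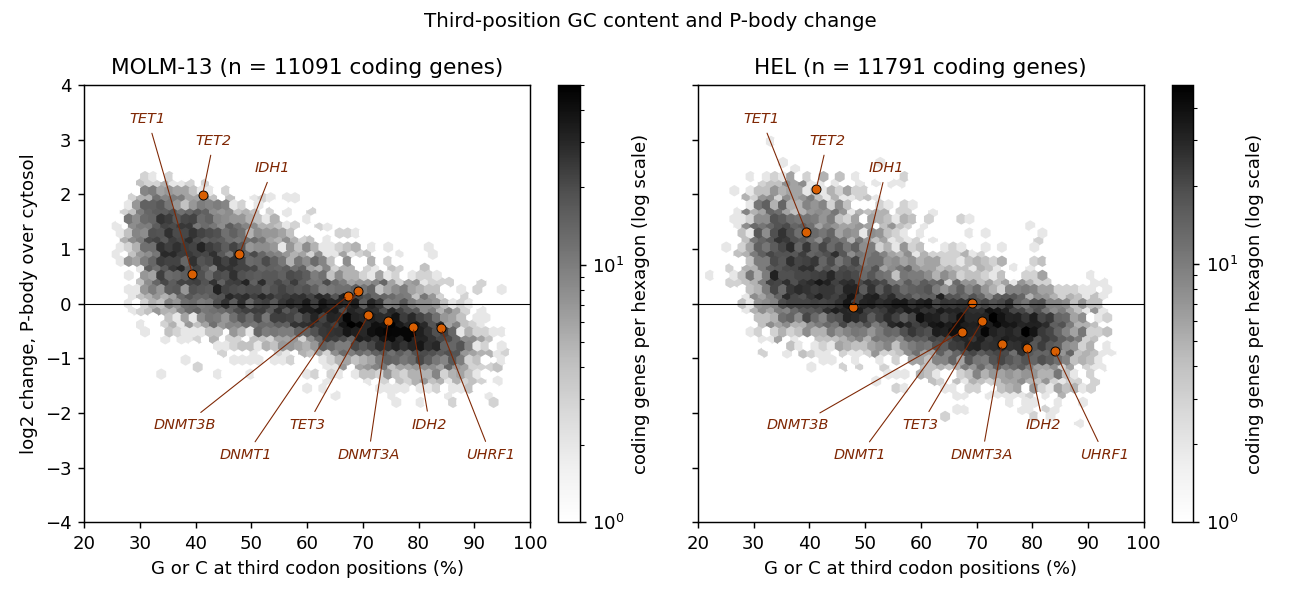
Share of last codon positions with G or C in percent (x axis) against the log2 change of P-body over cytosol (y axis) for MOLM-13 (left) and HEL (right), with coding genes as hexagons shaded by their number on a log scale and the 9 genes as orange points. TET2, at 41.2%, lies at the upper edge of the cloud in both lines, and UHRF1, at 84.0%, lies below 0.

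The 3′ untranslated regions (3′ UTRs) were searched for the 8-base pattern TGTANATA, the form bound by Pumilio proteins, and for ATTTA, the core of AU-rich elements, on the sense strand and counting overlapping matches. TGTANATA occurred 3 times in TET2, 3 times in TET3, 2 times in DNMT3A, once in TET1 and not in the 3′ UTRs of the other 5 genes. Of tested coding genes with an annotated 3′ UTR, 26.0% of 10923 in MOLM-13 and 26.5% of 11604 in HEL had at least 1. The genes with a match have 3′ UTRs of 2668 to 6424 bases. The median over tested coding genes was 944 bases in MOLM-13 and 981 in HEL. The matches of TET2 and TET1 are shown with 10 bases on either side, and capitals mark the pattern. They were chosen because these genes were higher in P-bodies in both lines, for TET1 in MOLM-13 not in every setting.
TET2 first: aacgtatataTGTACATAtatacacaaa
TET2 second: agtggcatatTGTAAATAtcagatctat
TET2 last: gatctataatTGTAAATAtaaaacctgc
TET1: gttcataaatTGTAAATAtatattttaa
On GRCh38, all on the plus strand, they lie at chr4:105277334-105277361, chr4:105279330-105279357, chr4:105279351-105279378 and chr10:68692405-68692432. TET3 and DNMT3A, which were not higher in P-bodies, hold the pattern as well. ATTTA occurred 18 times in TET3, 8 times in TET2, 5 times each in TET1 and DNMT3A, 2 times each in IDH2 and UHRF1 and not in DNMT1, DNMT3B and IDH1. Of tested coding genes with an annotated 3′ UTR, 67.6% in MOLM-13 and 68.3% in HEL had at least 1. A match is a description of these letters and not a measured binding site.

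By the root mean square difference in centred log2 CPM over the 8 libraries, among 11984 genes tested in both lines, the genes most like TET2 were ZHX1 (0.079), KLHL8 (0.084) and KLHL20 (0.114). Those most like TET1 were EXOG (0.120), TIA1 (0.133) and TACC1 (0.141), and those most like IDH1 were UFSP2 (0.069), CNBP (0.071) and INTS8 (0.077). For DNMT3B they were MOV10 (0.112), ACO1 (0.124) and BTG2 (0.153). PSTK (0.031) was closest to DNMT1, EPS15L1 (0.079) to DNMT3A, TRAF3IP2 (0.065) to TET3, NBEAL2 (0.071) to IDH2 and RPS6KA1 (0.071) to UHRF1.

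The wider pathway was read from 4 lists, in which the named genes are up to 2 called genes with the largest change in each direction in each line. Counts are to be read against all tested genes, of which 32.4% were called higher and 28.5% lower in MOLM-13, and 27.5% higher and 27.1% lower in HEL. Counts with library totals are to be read against 2903 higher and 7154 lower of 14089 tested genes in MOLM-13. In HEL they are to be read against 2762 higher and 6761 lower of 14772. Of the partners and readers of DNA methylation, 24 of 26 were tested in MOLM-13, with 10 higher and 8 lower in P-bodies and a median log2 change of 0.08, beside -0.04 over all tested genes. In HEL 23 were tested, with 11 higher and 4 lower and a median of 0.13, beside -0.06. With library totals 7 were higher and 13 lower in MOLM-13, and 9 higher and 9 lower in HEL. In MOLM-13 ZBTB24, a zinc finger protein needed for methylation of repeats near centromeres, was 2.68-fold higher and CDCA7L was 2.21-fold higher. MBD3, a subunit of the NuRD complex, was 2.23-fold lower. TRIM28, the corepressor that KRAB zinc finger proteins recruit, was 2.18-fold lower in MOLM-13 and 2.82-fold lower in HEL, where its cytosol libraries differed from each other at 138 and 273 CPM. In HEL the methyl-CpG binding protein ZBTB38 was 4.18-fold higher, QSER1, which guards unmethylated regions together with TET1, was 2.46-fold higher, and the DNA ligase LIG1 was 1.55-fold lower. The call for LIG1 was lost with the GC and length trend removed (log2 -0.06, edgeR adjusted p = 0.491).

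Of the genes for active demethylation and base excision repair, 27 of 29 were tested in MOLM-13, with 9 higher, 6 lower and a median log2 change of 0.07, beside -0.04 over all tested genes. In HEL 25 were tested, with 8 higher, 9 lower and a median of -0.12, beside -0.06. With library totals 6 were higher and 17 lower in MOLM-13, and 4 higher and 14 lower in HEL. TDG, the glycosylase that removes the oxidised cytosines TET enzymes make, had 294 and 305 CPM in HEL P-bodies, against 111 and 106 CPM in HEL cytosol, a 2.75-fold rise (log2 1.46, SE 0.074, edgeR adjusted p = 4.2e-10). Both CUL4 ubiquitin ligase scaffolds were higher in both lines, CUL4A 2.2-fold in MOLM-13 and 2.02-fold in HEL, and CUL4B 2.37-fold in MOLM-13 and 1.47-fold in HEL. DDB1, the adaptor of both scaffolds, was 1.72-fold lower in MOLM-13 and 2.05-fold lower in HEL. The DNA break sensor PARP2 was 3-fold higher in MOLM-13, the glycosylase OGG1 was 1.61-fold lower in MOLM-13 and the scaffold XRCC1 was 1.60-fold lower in HEL. The XRCC1 call was lost with the GC and length trend removed (log2 -0.17, edgeR adjusted p = 0.0905). That of OGG1, from 50 to 96 counts per MOLM-13 library, was lost with DESeq2 (log2 -0.62, DESeq2 adjusted p = 0.185). The OGG1 change also depended on single libraries. It was log2 -0.69 with all of them, -0.42 without MOLM-13 P-body replicate 1 and -0.46 without MOLM-13 cytosol replicate 2.

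The genes that make or use 2-oxoglutarate and related acids leaned one way in HEL. There 27 of 29 were tested, with 5 higher and 19 lower in P-bodies and a median log2 change of -0.48, beside -0.06 over all tested genes. In MOLM-13 26 were tested, with 7 higher and 8 lower and a median of -0.03, beside -0.04. With library totals 4 were higher and 16 lower in MOLM-13, and 4 higher and 22 lower in HEL. With the GC and length trend removed the HEL counts were 3 higher and 11 lower. In that setting 3467 of 14383 tested genes were called higher and 3476 lower in HEL. In the test of the difference between lines, 9 of 27 genes of this list had a higher change in MOLM-13 and 0 a lower one, where 9.15% of all tested genes were called higher and 13% lower. In the same test the methylation partners and readers had 1 higher and 9 lower of 24, the genes of demethylation and repair 4 higher and 4 lower of 27, and those of methyl donor supply 7 higher and 3 lower of 22. IDH3A, a subunit of the NAD-dependent isocitrate dehydrogenase of the citrate cycle, had 24.5 and 23.0 CPM in MOLM-13 P-bodies, against 5.46 and 7.26 CPM in MOLM-13 cytosol (log2 1.88, SE 0.17, 3.69-fold, edgeR adjusted p = 5.6e-10).

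DLD, a shared subunit of the 2-oxoglutarate and pyruvate dehydrogenase complexes, was 2.74-fold higher in MOLM-13. D2HGDH, which oxidises D-2-hydroxyglutarate, was 2.02-fold lower and the citrate carrier SLC25A1 1.58-fold lower in MOLM-13, and SLC25A1 turned to a log2 change of 0.07 with the GC and length trend removed. In HEL the mRNA of fumarase (FH) was 1.57-fold higher. OGDH, which consumes 2-oxoglutarate, was 1.88-fold lower, and PSAT1, the serine pathway enzyme that releases it, was 1.82-fold lower in HEL.

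Of the genes that supply methyl groups through folate and methionine, 21 of 24 were tested in each line. In MOLM-13 10 were higher and 5 lower, with a median log2 change of 0.08, beside -0.04 over all tested genes, and in HEL 6 were higher and 10 lower, with a median of -0.24, beside -0.06. With library totals 6 were higher and 10 lower in MOLM-13, and 3 higher and 12 lower in HEL. Methionine synthase (MTR) was 2.78-fold higher in MOLM-13 and 1.81-fold higher in HEL. MAT2B, the regulatory subunit of an S-adenosylmethionine synthetase, was 3.33-fold higher and the folate carrier SLC19A1 2.39-fold lower in MOLM-13. AHCYL1, a relative of S-adenosylhomocysteine hydrolase, was 1.75-fold lower in HEL.

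**Figure D5:**
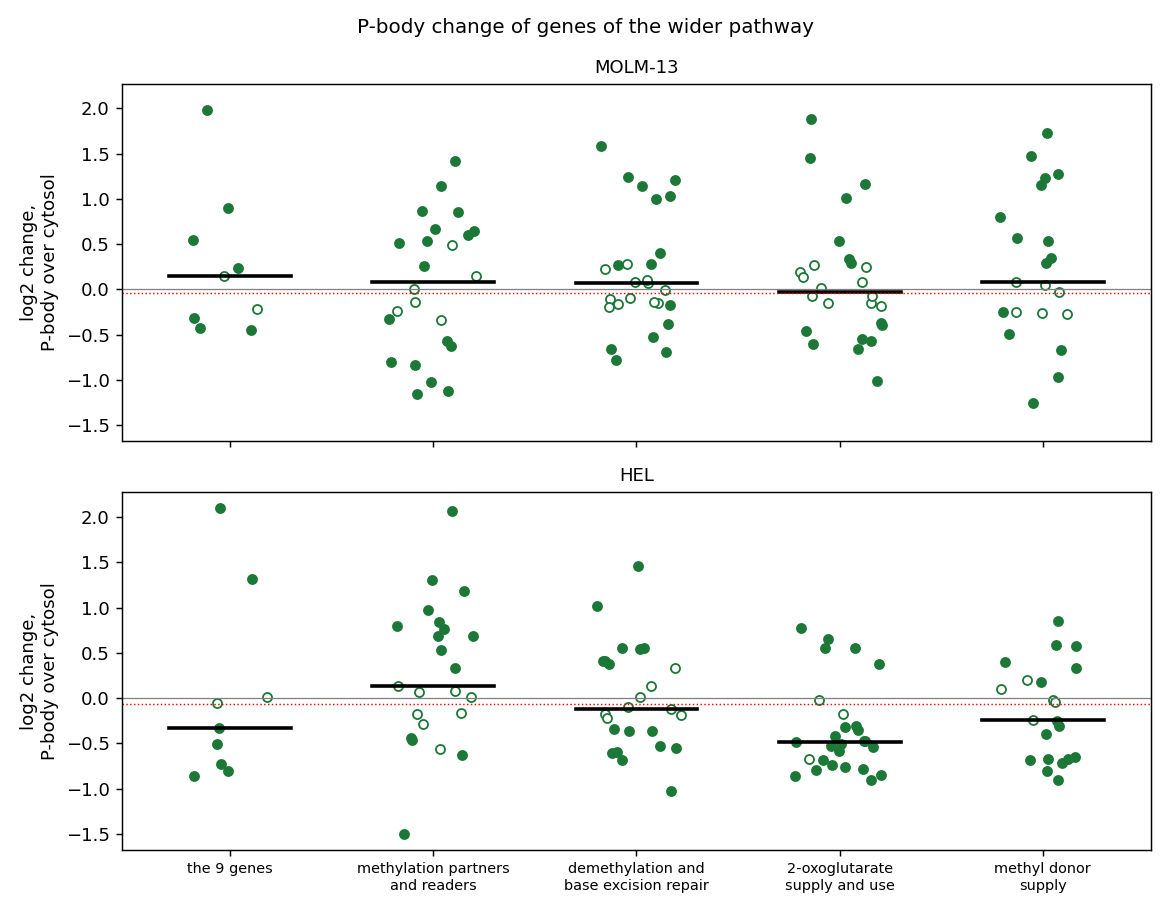
Log2 change of P-body over cytosol (y axis) of each tested gene of the 9 genes and of the 4 pathway lists (x axis), for MOLM-13 (top) and HEL (bottom); filled points have an adjusted p below 0.05, black bars are medians and the dotted red line is the median of all tested genes. The list of 2-oxoglutarate supply and use has its median at -0.03 in MOLM-13 and at -0.48 in HEL.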

How the data were processed

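The deposited files are a count table per line, with raw read counts per gene symbol that the authors made, and were used as deposited. STAR, DESeq2, SAMtools 1.12 and the build GRCh38 are named in the submitters' processing notes. The sources used here do not give the read counter, annotation release or strand setting, so reads of overlapping or antisense genes cannot be told apart. Of 61544 rows per table, 1348 carried 112 repeated symbols and were left out. edgeR 4.0.16 (R 4.3.3) was run with TMM scaling, filterByExpr (smallest count 10), glmQLFit and glmQLFTest, and Benjamini-Hochberg adjustment over all genes tested. Each line was fitted alone for P-body against cytosol, and all 8 libraries together for comparisons between lines. Chi-square per degree of freedom between the 2 libraries of a group ran from 1.87 to 6.15 (genes with at least 20 summed counts), above sampling noise. The code was tested on simulated data. Transcript properties came from the GENCODE release 29 transcript with the longest coding sequence, matched by symbol for 55900 of 60196 symbols. The GC and length trend was a natural spline with 5 degrees of freedom, removed as an offset.

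Alternatives were RLE scaling, library totals, no filter, a filter of 5 CPM in 2 libraries, DESeq2 1.42.0, a replicate block, the trend, both together, and leaving out each library. All 9 genes are named. From each list the 2 called genes with the largest rise and fall in each line are named, and for each of the 9 genes those with the smallest root mean square difference, of which up to 3 are given. Some genes that this rule picks are not reported here. The 9 genes and the lists were chosen with earlier results of these data known. Between genes, levels were compared only per kilobase, and the interval of a fold change is given by its SE. The SE was computed as the absolute log2 change over the square root of the F statistic of the test. It is therefore not independent of the p-value.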

Additional observations from a re-analysis of the deposited data

Results flagged for a closer look

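A different P-body change in the lines, by the interaction term of the edgeR fit with Benjamini-Hochberg adjustment, singled out 18 of the genes named above. Over all 17477 tested genes 22.2% were called. The genes from the lists were named for a large P-body change in these same libraries, which favours a difference between lines. Their number is therefore not a result about the lists. Values are MOLM-13 minus HEL on the log2 scale, and the median over all tested genes was -0.11. Among the 9 genes these were TET1 at -0.96, DNMT3B at 0.47 and IDH1 at 0.77.

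Among methylation partners ZBTB38 differed by -1.76, QSER1 by -1.63 and MBD3 by -1.17. Among genes of demethylation and repair TDG differed by -0.44, XRCC1 by 0.48, PARP2 by 0.98 and CUL4B by 0.50. Among genes of 2-oxoglutarate supply and use FH differed by 0.33, PSAT1 by 0.69, IDH3A by 1.32 and DLD by 0.71. Among genes of methyl donor supply MTR differed by 0.43, AHCYL1 by 0.37, MAT2B by 0.97 and SLC19A1 by -0.76. The calls for FH, XRCC1, AHCYL1, TDG and SLC19A1 were lost without at least 1 single library, for TDG without HEL P-body replicate 1 (-0.15), HEL cytosol replicate 1 (-0.18) or HEL cytosol replicate 2 (-0.12).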

How the results depend on the processing

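Of 648 values of the 9 genes under other settings, 575 kept direction and side of the threshold, 32 lost the call, 17 gained one and 24 changed sign. Of 576 values of 43 results for other named genes, 551 kept both, 23 lost the call and 2 changed sign, both SLC25A1 in MOLM-13 (0.07 with the trend removed, with and without the replicate block). Counts of all genes called stayed within 1.5 times. With library totals, 28.9% of called genes were higher in MOLM-13 (53.2% with TMM) and 29% in HEL (50.3% with TMM). In MOLM-13 this gave 2 of the 9 genes higher and 5 lower, DNMT1 -0.20 and DNMT3B -0.29, and in HEL DNMT1 -0.31. DESeq2 gave 64.3% higher in MOLM-13. With the GC trend removed TET1 in MOLM-13 was -0.16, also with the block. In HEL DNMT1 was -0.0036 with the 5 CPM filter and from -0.05 (without HEL cytosol replicate 1) to 0.10 without a library, and IDH1 from -0.10 to 0.03 (without HEL P-body replicate 2).

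For the difference between lines, 1 gene was higher without a filter, with the 5 CPM filter (2 lower) and with the replicate block. Of all genes, 1596 of 43811, 1407 of 12200 (2774 lower) and 1547 of 17477 were called higher in that order. With the block DNMT3B was 0.47 (edgeR adjusted p = 0.0649). The share of higher calls, 41.3%, moved to 57.7% with the trend removed (58% with trend and block), 51.7% with library totals, 56.2% with DESeq2, and to 73.9%, 76.9% and 76.2% without HEL P-body replicate 1, HEL cytosol replicate 1 and HEL cytosol replicate 2. DNMT1 was -0.04 with the 5 CPM filter, and TET3 was 0.02 with DESeq2, 0.02 with the trend and 0.01 with the trend and block. Leaving out a library gave TET2 from -0.42 to 0.12, TET3 from -0.19 to 0.29 and DNMT1 from -0.0015 to 0.39. The median over all genes then ran from -0.14 to 0.19. The call for DNMT3B was lost without HEL P-body replicate 2 (0.40) or any 1 MOLM-13 library (0.44 to 0.50). For MOLM-13 against HEL in cytosol, no filter gave 1 gene higher, where 8122 of all 43811 genes were called higher. DNMT1 was then -0.01 and DNMT3A 0.27. TET1 in that comparison was 0.23 with the 5 CPM filter, the trend, or trend and block. It ran from -0.18 to 0.04 without a library. In P-bodies UHRF1 was -0.23 without HEL P-body replicate 1 (adjusted p = 0.0708), and UHRF1 and IDH1 lost the call with the trend removed (-0.05 and -0.12). In cytosol DNMT1 was 0.08 without HEL cytosol replicate 1 (adjusted p = 0.348). The causes were not tested.

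Same-numbered libraries did not deviate together (correlation -0.0103 in MOLM-13 and -0.0685 in HEL), so replicate numbers were not taken as pairs. Apart from DNMT3B in the difference between lines, the block changed no call of the 9 genes. Counts as low as 74 for DNMT3B in MOLM-13 limit its precision.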
